A study of Mus musculus with 12 samples.

Results

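The genes that build the adhesive belts between cells were examined in the neonatal mouse cochlea: 63 cadherins, claudins and desmosome or other junction genes out of 28686 gene symbols counted by RNA-seq. They were picked by symbol, with earlier results of these data known. The set holds 22 classical and other cadherins (*Cdh23*, a hair bundle gene, was left out), 21 claudins, 3 tight junction scaffolds, occludin and the 2 *Marveld* genes, 7 desmosomal cadherins, 6 genes of the desmosomal plaque and *Epcam*. Cochleae were taken on postnatal day (P) 6 from 6 Sox2CreER/+Jag1fl/fl mutants and 6 Sox2+/+ littermate controls. The study asked what loss of the Notch ligand JAG1 from supporting cells does to the maturing cochlea.

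Every pup, mutant or control, received tamoxifen on P0 and P1. In the mutants tamoxifen activates a CreER recombinase made from the *Sox2* locus, which is active in supporting cells and, as background, in other cells that use *Sox2*, such as glia. The controls carried Jag1+/fl or Jag1fl/fl and no CreER, so that loss of *Jag1* and the presence of the CreER allele cannot be told apart. The labels give the strain as C57BL/6;129SV, whereas the methods of the study name C57BL/6J for the CreER line and FVB/n for the floxed line. Each library is 1 mouse. The labels call the tissue cochlea and the study's text calls it sensory epithelium. The summed markers of mesenchyme were at 9690 to 11840 CPM (read counts scaled to a common library size, with TMM factors) in controls, and those of supporting cells at 4994 to 6080 CPM. These lists hold different genes and the sums are not per length, so they show that both tissues were present but not their shares. In such bulk tissue fewer cells of a type and less RNA per cell cannot be told apart.

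Cadherins are calcium-dependent adhesion molecules whose tails are tied to actin by catenins, and claudins form the tight junction strands that keep the potassium-rich endolymph apart from the perilymph. Desmosomes join cells through the desmogleins and desmocollins, which are anchored to intermediate filaments by plakoglobin, plakophilins and desmoplakin. In the cochlea these junctions hold the apical surface of the organ of Corti, the stria vascularis and the capillary wall together, and loss of several claudins or of tricellulin causes deafness.

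Between 28498549 and 36134983 reads were counted on genes in each library. *Jag1* itself lay between 83.0 and 118 CPM in controls and between 24.2 and 42.9 CPM in mutants, which was 35.7% of the control mean (edgeR log2 fold change -1.48 ± 0.13 SE, adjusted p = 0.000258). Markers of other cells also differed between the genotypes before adjustment. At an edgeR unadjusted p under 0.05, 6.52% of all genes tested were higher in mutants and 4.04% were lower. Of 14 spiral ganglion neuron markers 12 were higher in mutants at that threshold and none was lower. Their summed level was 551 to 959 CPM in controls and 817 to 1742 CPM in mutants. All 12 Schwann cell markers were higher in the same sense, with sums of 431 to 1485 CPM in controls and 1207 to 6185 CPM in mutants. The Schwann cell sum was highest in mutants 1 and 2 and the neuron sum was highest in mutant 4. None of the 12 hair cell markers passed this threshold, nor did 8 of 10 supporting cell markers, the other 2 being lower. In the mesenchyme and endothelial lists 1 marker each was lower at that threshold, and in the stria list 1 was higher. The sums of every list, those of neurons and Schwann cells included, overlapped between the genotypes. No marker was at 0 in any library, and no marker of any list passed the adjusted threshold.

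No junction gene passed the adjusted threshold of 0.05 in mutants against controls. Of the 63 genes, 56 had a mean count of at least 5 and were tested with edgeR (quasi-likelihood), and 0 were called, where 0.19% of all 18459 genes tested were called (0.108% higher and 0.0813% lower). An unadjusted p under 0.05 was found for 17 junction genes, 7 higher and 10 lower in mutants, or 30.4% of those tested against 10.6% of all genes (6.52% higher and 4.04% lower). Without mutant 2 there were 10 such genes, 18.2% of those tested, against 8.39% of all genes in the same fit. limma-voom called 0. DESeq2 called 7, of which *Cldn19*, *Cdh20*, *Cdh7*, *Cdh9* and *Cdh4* were higher and *Cldn23* and *Jup* were lower, where it called 3.37% of all genes (2.57% higher and 0.795% lower). Over the 56 genes the median log2 fold change was -0.07, with 17 above 0 and 39 below, beside a median of 0.00297 and 50.9% above 0 over all genes. The members that were higher had large fold changes and low levels, with a log2 fold change of 0.58 to 2.81 from control means of 0.0361 to 21.2 CPM. The values of 2.81 and 0.0361 CPM are those of *Cdh7*, which reached the minimum count only through the mutants. The members that were lower had small fold changes, of -0.51 to -0.16, and control means of 7.59 to 178 CPM.

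**Figure D1:**
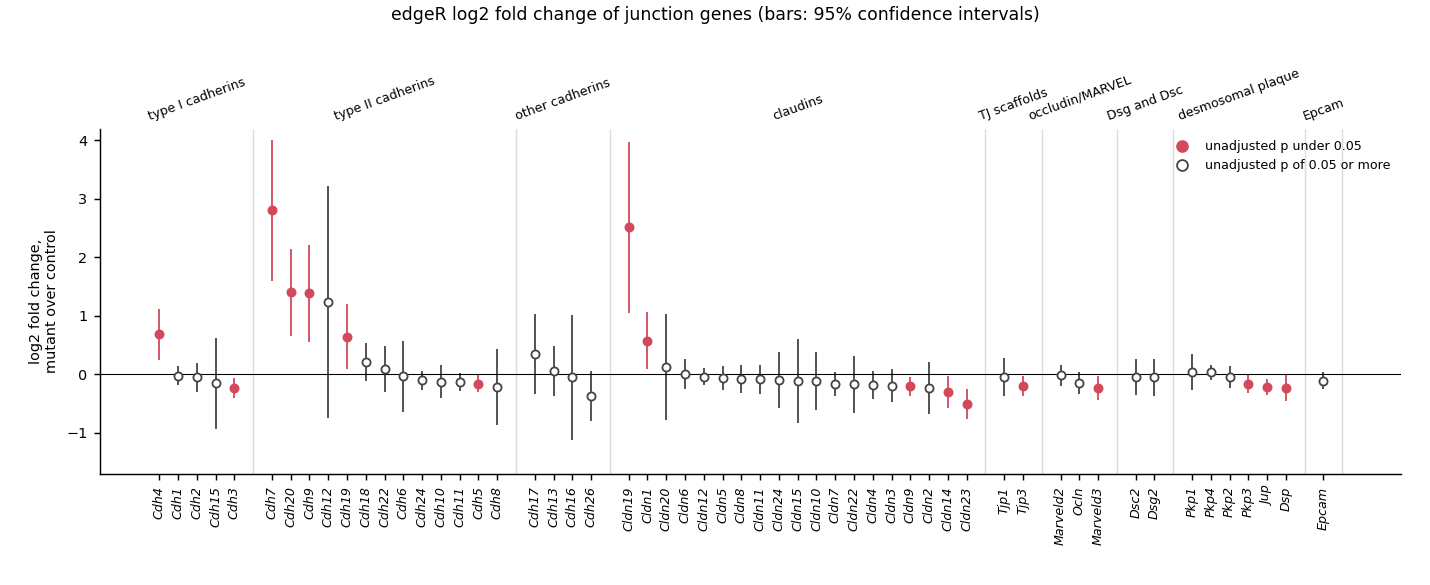
The vertical axis gives the edgeR log2 fold change, mutant over control (6 mice each), of 55 of the 56 junction genes tested, grouped by role along the horizontal axis, and bars are 95% confidence intervals. Filled red points are the 17 genes with an unadjusted p under 0.05, of which the 7 above 0 reach 2.81 and the 10 below 0 reach -0.51.

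The most abundant junction transcripts of the control cochlea, per kilobase of exon, were those of genes known from different tissues of the organ. *Cldn11*, which as background seals the basal cells of the stria vascularis, stood first at 235 CPM per kb. *Cdh1* (E-cadherin, the adherens junction cadherin of epithelia) followed at 145, *Epcam* (an epithelial adhesion molecule that binds claudin-7) at 118 and *Cldn9* (a claudin of the organ of Corti whose loss causes deafness) at 116 CPM per kb. *Tjp1* at 54.3, *Pkp4* at 39.4 and the endothelial *Cldn5* at 35.7 CPM per kb came next. The 4 leading genes overlapped between the genotypes. *Cldn11* had means of 439 ± 64.7 CPM in controls and, in mutants, 415 ± 68.7 CPM (± is the SD of 6 mice for every mean), a log2 difference of -0.08 with a 95% interval of -0.33 to 0.17. Of the 39 tested junction genes with an unadjusted p of 0.05 or more, 24 had a control mean of at least 10 CPM, and their log2 fold changes lay between -0.19 and 0.21, with interval bounds no wider than -0.64 and 0.58.

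**Figure D2:**
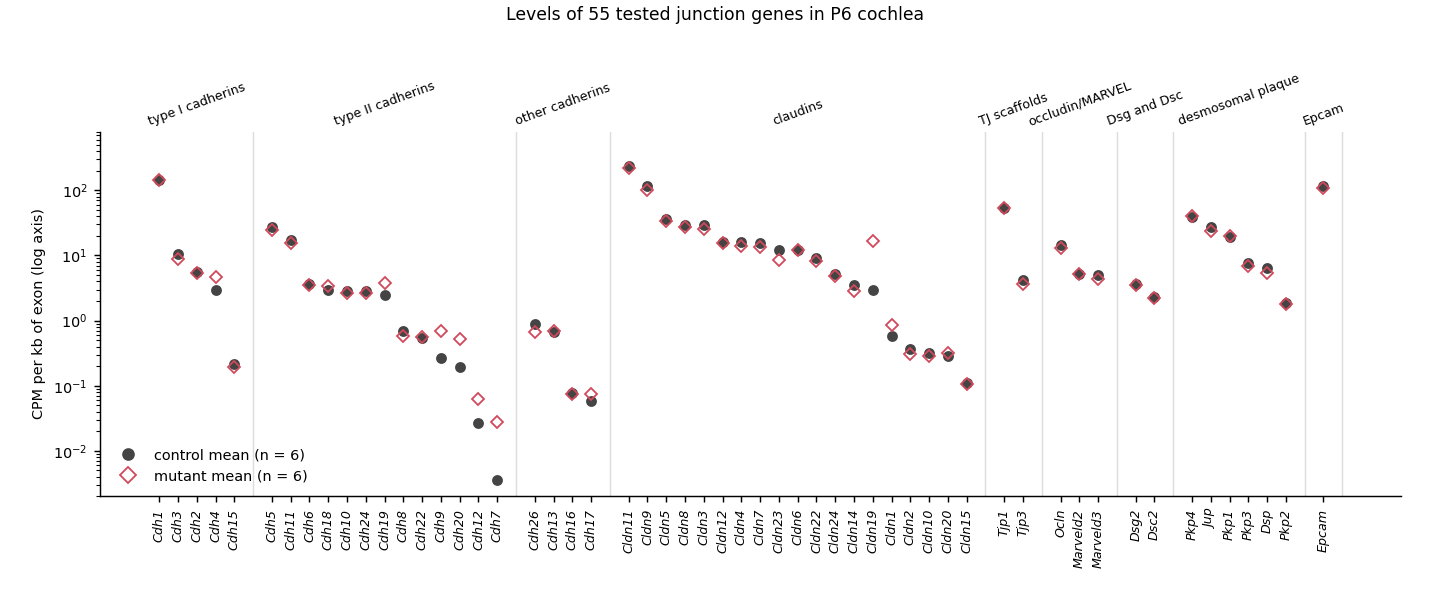
Each point is the mean level over 6 control (grey circles) or 6 mutant (red diamonds) mice, in CPM per kilobase of exon on a log axis, of 1 of 55 junction genes tested. *Cldn11*, *Cdh1*, *Epcam* and *Cldn9* stand highest in controls (235, 145, 118 and 116 CPM per kb). Of the claudins drawn, *Cldn19* has the group means that lie farthest apart as a ratio (2.94 and 16.8 CPM per kb).

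Among the 5 classical type I cadherins, which join like cells and are tied to actin by catenins, 1 was higher and 1 was lower at an unadjusted p under 0.05. *Cdh1* lay between 565 and 705 CPM in controls (median 678) and between 589 and 726 CPM in mutants (median 631). The groups overlapped almost completely, and the log2 fold change was -0.02 with a 95% interval of -0.18 to 0.14. *Cdh2*, the N-cadherin of neural and mesenchymal cells, was 44.9 ± 5.70 CPM in controls and 43.4 ± 7.03 CPM in mutants, with an interval of -0.29 to 0.19 for the log2 fold change. The ratio of *Cdh1* to *Cdh2* in CPM was 12.4 to 16.3 in control mice and 12.8 to 19.1 in mutants, so that it overlapped too. *Cdh4*, the R-cadherin of developing neural tissue, ran from 14.5 through a median of 21.6 to 28.8 CPM in controls and from 20.3 through 35.2 to 43.3 CPM in mutants. Mutants 1 and 4 lay within the control range. The log2 fold change was 0.69 ± 0.20 SE (edgeR unadjusted p = 0.00455, adjusted p = 0.149). *Cdh3*, the P-cadherin of basal epithelial cells and the chromosomal neighbour of *Cdh1*, ran from 40.8 through 45.7 to 52.3 CPM in controls and from 35.8 through 37.3 to 45.5 CPM in mutants. Its groups overlapped, with a log2 fold change of -0.23 ± 0.08 SE (edgeR unadjusted p = 0.0111, adjusted p = 0.238).

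The 13 type II cadherins held the most genes with low levels and high fold changes. At an unadjusted p under 0.05, 4 of them were higher and 1 was lower. *Cdh20*, a type II cadherin of the developing nervous system at chr1:104768529-104995481 on the plus strand (GRCm38), lay between 0.447 and 1.14 CPM in controls (median 0.734) and between 1.23 and 4.398 CPM in mutants (median 1.58). Every mutant was above every control, which held for 2 junction genes (*Cdh20*, and *Cdh7*, which reached the minimum count only through the mutants). Groups that did not overlap made up 0.997% of all genes, 0.618% higher and 0.379% lower. The log2 fold change of *Cdh20* was 1.40 ± 0.35 SE (edgeR adjusted p = 0.0954, DESeq2 adjusted p = 0.00633), and mutant 2 was the highest. The 250 bases before its start in RefSeq, at chr1:104768270-104768519 on the plus strand (GRCm38.p6), are shown because all of its mutants lay above all of its controls. The letters GGGCGG (a GC box) and ACAAAG (a core of SOX sites) were searched on both strands and marked in capitals. Gene positions are from GENCODE M21 and windows from RefSeq, so that the starts of a gene in the 2 annotations can differ by some bases. The window holds neither motif, and 32.7% and 16.5% of all 32851 promoter windows of this length hold them.
Cdh20: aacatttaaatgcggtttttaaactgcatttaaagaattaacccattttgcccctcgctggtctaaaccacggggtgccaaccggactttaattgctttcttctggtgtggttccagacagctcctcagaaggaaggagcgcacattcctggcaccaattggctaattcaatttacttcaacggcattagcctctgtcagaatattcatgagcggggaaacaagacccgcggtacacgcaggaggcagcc

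*Cdh7*, another type II cadherin of neural tissue, was close to the limit of detection. Its counts were 0, 1, 2, 1, 1 and 2 in controls 1 to 6 and 6, 10, 3, 22, 9 and 7 in mutants 1 to 6. No mutant count was as low as a control count, and the gene reached the minimum mean count only through the mutants. The summed counts of 7 and 57 give a ratio of 7.60 after scaling for depth, with a 95% counting interval of 3.46 to 19.8 that does not cover the spread between mice. Its edgeR unadjusted p of 0.00018 and adjusted p of 0.0615 rest on that passage, and it fell under the minimum and was not tested without mutant 2, without mutant 4 or without mutants 1, 2 and 4 together.

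*Cdh19*, which as background is made by Schwann cell precursors and glia, lay between 6.61 and 17.7 CPM in controls (median 9.21) and between 12.6 and 27.6 CPM in mutants (median 13.98). The groups overlapped through 1 high control, and mutant 2 stood apart at the top. The log2 fold change was 0.65 ± 0.26 SE (edgeR unadjusted p = 0.0253, adjusted p = 0.357), and without mutant 2 it was 0.43 (edgeR unadjusted p = 0.0686). *Cdh9*, a cadherin of particular neurons, lay between 0.552 and 1.64 CPM in controls (median 0.797) and between 0.656 and 4.46 CPM in mutants (median 2.59). It had 1 mutant (mutant 5) among the controls and a log2 fold change of 1.39 ± 0.39 SE (edgeR adjusted p = 0.129). Leaving out each mouse in turn, the edgeR adjusted p of *Cdh9* ran from 0.0215 (without mutant 5) to 0.282. *Cdh5*, the VE-cadherin of blood vessel endothelium, was the type II cadherin that was lower, with means of 116 ± 6.20 CPM in controls against 104 ± 10.6 CPM in mutants. Its groups overlapped, the log2 fold change was -0.16 ± 0.07 SE (edgeR unadjusted p = 0.0388, adjusted p = 0.426), and the endothelial marker sum was 557 to 612 CPM in controls and 512 to 588 CPM in mutants. *Cldn5*, the claudin of the same cells, was 50.6 CPM in controls and 48.5 CPM in mutants, with a log2 fold change of -0.06.

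Other type II cadherins did not pass the unadjusted threshold. *Cdh11*, a cadherin of mesenchyme, was 154 CPM in controls and 141 CPM in mutants (log2 fold change -0.13, unadjusted p = 0.0888), and *Cdh6* was 33.0 and 32.3 CPM. Mutant 1 was the lowest mutant for both. *Cdh12* had a log2 fold change of 1.24 (edgeR unadjusted p = 0.202), most of its counts in mutants coming from mutant 4, without which it was -0.25. The 4 cadherins outside these classes (*Cdh13*, *Cdh16*, *Cdh17* and *Cdh26*) had unadjusted p-values of 0.05 or more and log2 fold changes between -0.37 and 0.35.

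Of the 21 claudins 19 were tested, and the 2 below the minimum count were *Cldn13* and *Cldn17*. At an unadjusted p under 0.05, 2 were higher and 3 were lower in mutants. Of the 19, 4 had a log2 fold change above 0 and 15 one below, with a median of -0.11 beside 0.00297 over all genes. *Cldn19*, which as background forms the tight junctions within the Schwann cell myelin sheath and is also made in the kidney, had the largest difference of the claudins. It lies at chr4:119255414-119262438 on the plus strand. Control mice ran from 1.40 through a median of 13.0 to 25.2 CPM and mutants from 21.6 through 48.1 to 150 CPM. The groups overlapped only in that control 1 was above mutant 4. The means of 12.5 ± 7.95 and 71.5 ± 55.7 CPM differed by a log2 fold change of 2.51 ± 0.66 SE (edgeR unadjusted p = 0.00315, adjusted p = 0.129, DESeq2 adjusted p = 0.00647). The highest and lowest values went with the Schwann cell marker sum, as mutants 1 and 2 (150 and 134 CPM) had the highest sums of 6185 and 4764 CPM and control 4 (1.40 CPM) had the lowest of 431 CPM. The promoter window of *Cldn19* is shown because it is the claudin with the largest fold change. It lies at chr4:119255191-119255440 on the plus strand (RefSeq, GRCm38.p6), 1 of 2 windows listed for the gene, with GGGCGG or its reverse complement in capitals at 2 places.
Cldn19: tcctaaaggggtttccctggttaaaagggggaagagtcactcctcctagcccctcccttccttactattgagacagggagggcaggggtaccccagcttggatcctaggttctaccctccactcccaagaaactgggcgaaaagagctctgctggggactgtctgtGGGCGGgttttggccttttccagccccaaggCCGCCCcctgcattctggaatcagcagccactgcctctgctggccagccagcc

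*Cldn1*, the barrier claudin of epidermis that is also known from the perineurium of nerves, was low, at 2.10 to 3.46 CPM in controls and 2.64 to 7.70 CPM in mutants. Mutant 2 was the highest and the groups overlapped, with a log2 fold change of 0.58 ± 0.23 SE (edgeR unadjusted p = 0.0247, adjusted p = 0.355). Without mutant 2 it was 0.31 (edgeR unadjusted p = 0.0755). The 3 claudins that were lower differed by less. *Cldn23*, a claudin of epithelia at chr8:35824712-35826559 on the minus strand, lay between 17.9 and 24.96 CPM in controls (median 23.4) and between 12.4 and 21.4 CPM in mutants (median 15.2). The groups overlapped through mutant 4 alone, and the log2 fold change was -0.51 ± 0.12 SE with a 95% interval of -0.77 to -0.25 (edgeR unadjusted p = 0.000729, adjusted p = 0.0852, DESeq2 adjusted p = 0.00478). Leaving out each mouse in turn, its edgeR adjusted p ran from 0.0282 (without mutant 4, the mouse that overlapped) to 0.198. *Cldn9* was 167 ± 13.1 CPM in controls and 145 ± 14.8 CPM in mutants (log2 fold change -0.20 ± 0.08 SE, edgeR unadjusted p = 0.0191). *Cldn14*, whose loss causes deafness with loss of hair cells, lay between 6.50 and 8.72 CPM in controls and between 4.29 and 7.33 CPM in mutants (log2 fold change -0.31 ± 0.13 SE, edgeR unadjusted p = 0.0300). Both overlapped between genotypes, and the adjusted p-values from edgeR were 0.311 and 0.385. The hair cell marker sum was 492 to 553 CPM in controls and 455 to 595 CPM in mutants. The value of *Cldn22* is uncertain, since all of its exon bases are also covered by *Wwc2* on the opposite strand and the strandedness of the counting is not given in the sources used here.

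**Figure D3:**
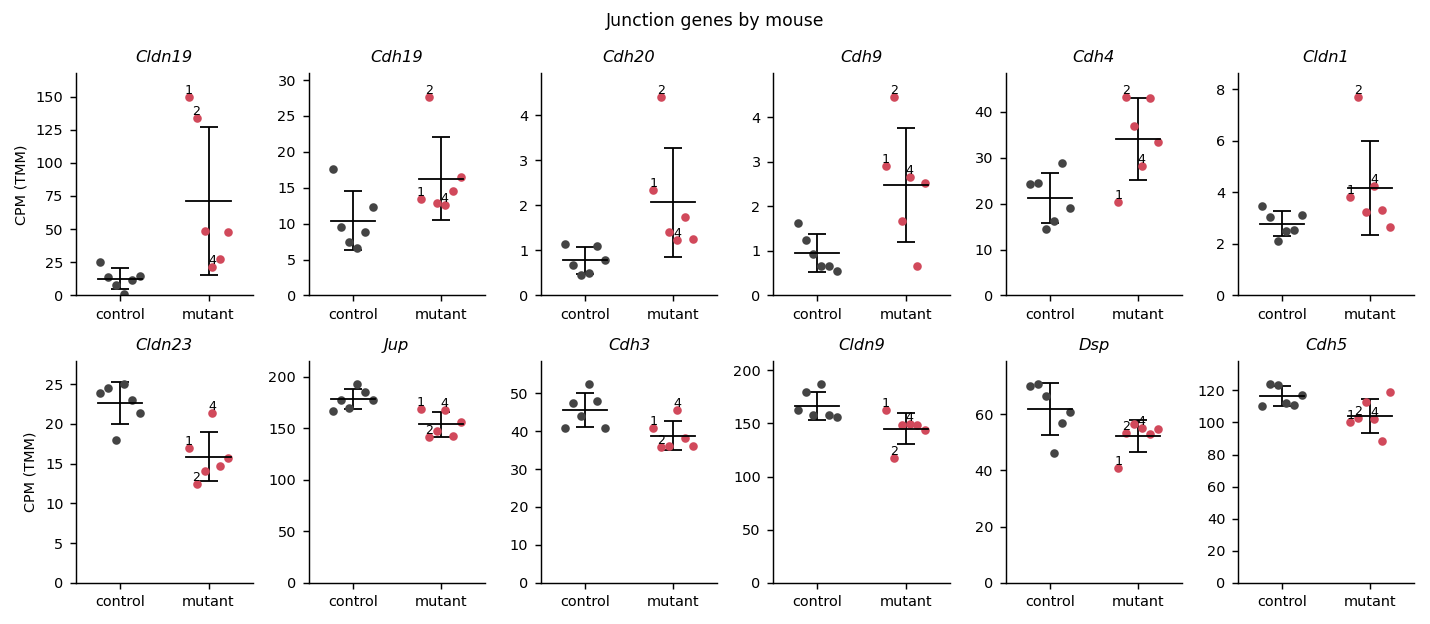
The level of 12 junction genes in each mouse, in CPM with TMM factors on axes that start at 0, for 6 controls (grey) and 6 mutants (red), where lines and bars are the mean and SD and the numbers mark mutants 1, 2 and 4. In *Cdh20* all mutants (lowest 1.23 CPM) are above all controls (highest 1.14 CPM), whereas the groups overlap in the other panels.

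Cytoplasmic scaffolds such as ZO-1 and ZO-3, made from *Tjp1* and *Tjp3*, tie claudins to actin. *Tjp1* was 424 ± 77.0 CPM in controls and 412 ± 79.3 CPM in mutants, with mutant 1 at 254 CPM. *Tjp3* lay between 14.4 and 17.8 CPM in controls and between 11.7 and 15.6 CPM in mutants, overlapping, with a log2 fold change of -0.20 ± 0.08 SE (edgeR unadjusted p = 0.0276, adjusted p = 0.371). *Ocln* (occludin) was 60.6 CPM in controls and 54.7 CPM in mutants (log2 fold change -0.15, edgeR unadjusted p = 0.122). *Marveld2*, the tricellulin of the points where 3 cells meet and a deafness gene, was 17.5 and 17.3 CPM, with a 95% interval of -0.19 to 0.16 for its log2 fold change. *Marveld3* lay between 15.0 and 19.3 CPM in controls and between 10.7 and 15.5 CPM in mutants, overlapping, with a log2 fold change of -0.23 ± 0.10 SE (edgeR unadjusted p = 0.0320, adjusted p = 0.398). *Epcam* was 259 ± 20.7 CPM in controls and 241 ± 17.1 CPM in mutants, with an interval of -0.25 to 0.04.

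Desmosomal transcripts were led by the plaque genes. Of the 7 desmogleins and desmocollins only *Dsg2* and *Dsc2*, the forms of simple epithelia, reached the minimum count, and the epidermal forms *Dsg1c*, *Dsg3*, *Dsg4*, *Dsc1* and *Dsc3* had 4 to 57 counts each over all 12 libraries. *Dsg2* was 30.7 CPM in controls and 29.6 CPM in mutants, and *Dsc2* was 12.2 and 11.9 CPM. Of 6 plaque genes 3 were lower at an unadjusted p under 0.05. *Jup*, the plakoglobin that belongs to both desmosomes and adherens junctions, ran from 167 through 178 to 193 CPM in controls and from 141 through 151 to 168 CPM in mutants. Mutants 1 and 4 reached just above the lowest control, and the log2 fold change was -0.21 ± 0.06 SE (edgeR unadjusted p = 0.00379, adjusted p = 0.138, DESeq2 adjusted p = 0.0262). *Dsp*, the desmoplakin that binds keratins, ran from 46.1 through 63.4 to 70.5 CPM in controls and from 40.8 through 54.1 to 56.5 CPM in mutants, overlapping, with mutant 1 the lowest (log2 fold change -0.24 ± 0.10 SE, edgeR unadjusted p = 0.0382, adjusted p = 0.424). *Pkp3* was 25.4 to 31.7 CPM in controls and 22.4 to 27.1 CPM in mutants (log2 fold change -0.17 ± 0.07 SE, edgeR unadjusted p = 0.0387). *Pkp4* at 225 and 230 CPM and *Pkp1* at 95.9 and 99.2 CPM had log2 fold changes of 0.04 and 0.05. The promoter windows of *Jup* (chr11:100397791-100398040, minus strand) and *Dsp* (chr13:38151044-38151293, plus strand), from RefSeq on GRCm38.p6, are shown as those of the plaque genes that were lower and have an entry. In capitals are 2 matches to GGGCGG on either strand in *Jup* and 4 in *Dsp*. Such a match was found in 22 of the 37 junction genes with a window and ACAAAG in 6 of them (*Cdh26*, *Cdh6*, *Cdh7*, *Cldn1*, *Cldn10* and *Cldn4*). A gene was counted if any of its windows held the match, and the 37 genes have 50 windows. These counts of genes therefore cannot be set beside the 32.7% and 16.5% of all windows, and no enrichment was tested. A match is a description of the letters only.
Jup: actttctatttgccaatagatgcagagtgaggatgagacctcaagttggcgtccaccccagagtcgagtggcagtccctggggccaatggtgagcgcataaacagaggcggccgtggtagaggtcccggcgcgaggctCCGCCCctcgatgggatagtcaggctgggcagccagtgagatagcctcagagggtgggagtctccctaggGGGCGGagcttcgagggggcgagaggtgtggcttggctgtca
Dsp: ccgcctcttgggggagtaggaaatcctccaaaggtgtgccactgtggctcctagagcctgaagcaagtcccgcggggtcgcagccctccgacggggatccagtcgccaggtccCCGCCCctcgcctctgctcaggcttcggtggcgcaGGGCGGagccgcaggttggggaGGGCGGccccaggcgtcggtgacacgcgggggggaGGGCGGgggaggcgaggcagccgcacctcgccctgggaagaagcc

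The proteins that bind these junction molecules were taken as a list of 40 partner genes, comprising catenins, nectins and afadin, junctional adhesion molecules, tight junction cytoplasmic proteins, angulins and desmosome-linked proteins. All 40 were tested and 0 were called by edgeR or by limma-voom, while 5 (12.5%) had an unadjusted p under 0.05 against 10.6% of all genes. DESeq2 called 2, *Ctnna3* and *Lsr*. *Ctnna1*, the alpha-catenin of epithelia that links cadherins to actin, was 367 CPM in controls and 357 CPM in mutants. Of the 9 genes of the catenin group 5 had a log2 fold change above 0, and the 2 with an unadjusted p under 0.05, neither past the adjusted threshold, were *Ctnna2*, the alpha-catenin of neurons, and *Ctnna3*. *Ctnna2* was 8.69 to 10.9 CPM in controls and 8.91 to 30.1 CPM in mutants, with mutant 4 standing apart (log2 fold change 0.61 ± 0.25 SE, edgeR unadjusted p = 0.0295), and *Ctnna3* had means of 0.305 and 1.15 CPM (log2 fold change 1.91 ± 0.47 SE, edgeR adjusted p = 0.0955). With the neuron and Schwann cell scores in the model these log2 fold changes were 0.23 and 0.31, and without mutant 4 that of *Ctnna2* was 0.27. *Magi2*, a scaffold, was 17.4 and 20.3 CPM (log2 fold change 0.22 ± 0.10 SE). The 3 angulins, which recruit tricellulin to the points where cells meet, had log2 fold changes below 0, 2 of them with an unadjusted p under 0.05 and none past the adjusted threshold. *Lsr* was 18.3 ± 1.06 CPM in controls and 15.3 ± 1.08 CPM in mutants (log2 fold change -0.25 ± 0.07 SE, edgeR adjusted p = 0.114), and *Ildr1*, a deafness gene, was 40.2 and 35.2 CPM (log2 fold change -0.19 ± 0.08 SE, edgeR adjusted p = 0.368). *Ildr2* was 38.9 and 31.8 CPM (log2 fold change -0.29, edgeR unadjusted p = 0.205). *Lsr* shares 43.6% of its exon bases with an overlapping gene model, *Gm4673*, and its value is uncertain to that extent.

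The mean log2 levels of the neuron and Schwann cell markers were also put in the model as covariates. The log2 fold change then kept its sign in 4 of the 7 higher genes and in 9 of the 10 lower ones. An unadjusted p under 0.05 was kept by 1 gene of each group (edgeR). The log2 fold change went from 2.51 to 0.05 in *Cldn19*, from 1.39 to -0.19 in *Cdh9*, from 0.65 to -0.06 in *Cdh19*, from 0.58 to -0.07 in *Cldn1* and from 1.40 to 0.39 in *Cdh20*. It stayed at 0.63 from 0.69 in *Cdh4* (unadjusted p = 0.0587) and at 2.66 from 2.81 in *Cdh7* (edgeR unadjusted p = 0.00417). Over the 7 higher genes the median went from 1.39 to 0.05, and 1 (*Cdh7*, which reached the minimum count only through the mutants) kept an unadjusted p under 0.05. Over the 10 lower genes it went from -0.22 to -0.18, 9 kept their sign and 1 (*Cldn23*, -0.56, edgeR unadjusted p = 0.00184) kept an unadjusted p under 0.05. Most markers of both lists were higher in mutants, so that genotype and scores share part of the variation that the model divides, and the part of the neuron and Schwann cell content in these results was not tested further. Mutants 1 and 2 had the highest Schwann cell scores and mutant 4 the highest neuron score, its Schwann cell score being the lowest of the mutants. Without these 3 mutants the 6 higher genes that could still be tested (all but *Cdh7*) and the 10 lower genes had the same sign as before. They were picked in a fit that held these same controls and remaining mutants, so the kept sign is no independent result. The remaining mutants still had Schwann cell scores of 5.45 to 6.18, against 3.31 to 5.45 in controls. Without the 3 mutants the log2 fold change was 1.72 in *Cldn19*, 0.92 in *Cdh20*, 0.83 in *Cdh4*, 0.77 in *Cdh9*, 0.50 in *Cdh19*, 0.14 in *Cldn1* and -0.61 in *Cldn23*, the last with an edgeR adjusted p of 0.0449. That fit was added after seeing the data, and the share of all genes called in it is not given here.

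**Figure D4:**
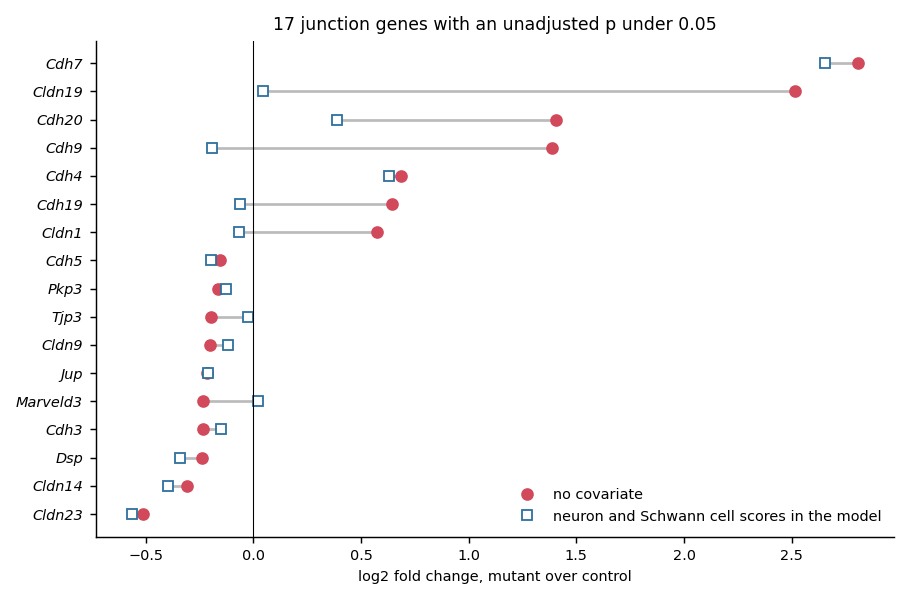
The horizontal axis gives the edgeR log2 fold change, mutant over control, of the 17 junction genes with an unadjusted p under 0.05, without covariates (red circles) and with the neuron and Schwann cell marker scores in the model (blue squares). *Cldn19* moves from 2.51 to 0.05 and *Cdh9* from 1.39 to -0.19, while *Cdh7*, *Cdh4*, *Jup* and *Cldn23* stay close to their first value. *Cdh7* reached the minimum count only through the mutants.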

How the data were processed

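RNA-seq libraries of 12 cochleae (6 mutants, 6 controls), read as single ends of 100 nucleotides, were grouped by the genotype in the sample labels. The authors deposited whole-number read counts per gene symbol, neither normalized nor pooled. The submitters' processing notes name Trimmomatic 0.32, STAR 2.4.2a, HTSeq 0.9.1, DESeq2 1.10.1 and GRCm38.p4. The strandedness and the annotation of the counting are not given in the sources used here. A second deposited table holds the authors' own DESeq2 comparison (mean counts, fold changes and p-values) and was not used.

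A minimum mean count of 5 per library left 18459 genes. Mutants were compared with controls in R 4.3.3 by edgeR 4.0.16 (quasi-likelihood, robust, TMM normalization, no covariates), with Benjamini-Hochberg adjustment over all genes tested and a call at an adjusted p under 0.05. CPM values use TMM factors. Levels per kilobase use exon lengths of GENCODE M21 on GRCm38, in which 26511 of 28686 symbols were found. On simulated counts with 200 of 18459 genes changed, this test made 176 calls, 165 of them on changed genes, a false share of 6.25%. Alternatives were limma-voom (limma 3.58.1), DESeq2 1.42.0, normalization by upper quartile or RLE, a minimum mean count of 20 or none, the replicate number as a block, marker scores (mean log2 CPM with a prior count of 2) of neurons and Schwann cells as covariates, and leaving out each mouse. Leaving out mutants 1, 2 and 4 together was added after seeing the data.

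The junction genes and all lists were chosen with earlier results of these data known. Genes are named if their unadjusted p was under 0.05 or their groups did not overlap, if they were among the 3 with the highest mean level of their role, or if they are usual markers or deafness genes, and partner genes if their unadjusted p was under 0.05. *Cdh12*, *Cldn22*, *Ctnna1* and *Ildr2* were named after their values were seen. Total counts were 28498549 to 34430252 in controls and 31899265 to 36134983 in mutants. Counting error was smaller than the differences between mice of 1 genotype (chi-square per degree of freedom 14.4 to 76.6 over 30 pairs), so the spread between mice limits all but the lowest genes, such as *Cdh7*. Which mice shared a litter is not given in the labels. The values of 1 gene of the set, which stays in all counts, are not reported here. RefSeq promoter windows (GRCm38.p6) were found for 37 of the 63 genes.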

Additional observations from a re-analysis of the deposited data

Results flagged for a closer look

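In 15 of 90 groups of 6 mice examined, the highest or lowest mouse stood apart from the other 5. The gap over the range was then above the Dixon critical value of 0.625. Chance sets apart about 5% of independent groups. Many of these genes were named for their values and all groups come from the same mice, so that 5% is no baseline here. Mutant 2 was the high mouse in *Cdh19* (27.63 CPM, other mutants 12.6 to 16.6), *Cdh20* (4.398 CPM, others 1.23 to 2.33), *Cldn1* (7.705 CPM, others 2.64 to 4.24), *Ctnna3* (2.518 CPM, others 0.520 to 1.13) and *Magi2* (27.15 CPM, others 18.3 to 19.5). Mutant 1 was the low mouse in *Dsp* (40.78 CPM, others 53.0 to 56.5), *Cdh11* (113.7 CPM, others 139 to 153), *Cdh6* (12.97 CPM, others 31.1 to 41.1) and *Tjp1* (254.1 CPM, others 414 to 465). Mutant 4 was high in *Cdh13* (13.85 CPM, others 6.02 to 7.37), in *Cdh12* (1.695 CPM, others 0.0613 to 0.283) and in *Ctnna2* (30.13 CPM, others 8.91 to 14.4). Control 4 was low in *Cdh1* (564.9 CPM, other controls 661 to 705) and high in *Cdh16* (0.779 CPM, others 0.145 to 0.289). Mutant 5 was high in *Lsr* (17.5 CPM, other mutants 14.7 to 15.2). The 3 mutants named most often are those with the highest neuron or Schwann cell scores, and the part of those scores in these values was not tested.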

How the results depend on the processing

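No junction gene was called by edgeR with TMM, RLE or upper-quartile normalization, with a mean count of at least 20, with the marker scores as covariates, or by limma-voom. DESeq2 called 7 (5 higher, 2 lower), and 1 was called without a filter (*Cdh7*, higher), with the replicate block (*Cldn19*, higher, adjusted p = 0.0287) and without mutants 1, 2 and 4 (*Cldn23*, lower). Leaving out 1 mouse gave 0 to 2 calls (0 to 2 higher, 0 to 1 lower), which were *Cldn23* without mutant 4, *Cdh7* without mutant 3, and *Cdh7* and *Cdh9* without mutant 5. At an unadjusted p under 0.05 there were 17 junction genes, and 3 with the scores (2 higher, 1 lower), which were *Cdh7* and *Cldn23* of the 17 and *Cldn6*, or 5.36% against 2.8% of all genes in that fit. There were 9 without the 3 mutants (3 higher, 6 lower), or 16.4% against 6.93% of all genes, *Cdh7* no longer being tested, and 10 to 16 without 1 mouse (4 to 7 higher, 6 to 10 lower), the lowest without mutant 2. For the partner genes DESeq2 called 2, leaving out 1 mouse called 0 to 2 (2 without mutant 5), and those at an unadjusted p under 0.05 were 2 with the scores and 2 to 7 without 1 mouse, against 5. Over all genes 35 calls became 619 with DESeq2, 19 with limma-voom, 57 without a filter, 131 with the replicate block, 1 with the scores and 14 to 356 without 1 mouse (356 without mutant 5, 14 without control 2 or control 6). The cause of these moves was not tested, and the number of calls over all genes without mutants 1, 2 and 4 is not given here. With the scores the log2 fold change changed sign in 16 of the 56 junction genes tested, and among the genes named in *Cdh12* (-0.66), *Cdh19* (-0.061), *Cdh9* (-0.19), *Cldn1* (-0.068), *Marveld3* (0.023), *Cdh13* (-0.24), *Cdh16* (0.84), *Dsc2* (0.051), *Pkp1* (-0.27) and *Magi2* (-0.030), and without the 3 mutants in 13 of 55, and among the genes named in *Ctnna1* (0.0004), *Cdh1* (0.069), *Cdh2* (0.0074), *Cdh6* (0.10), *Cdh13* (-0.22), *Cldn11* (0.0025), *Tjp1* (0.079), *Marveld2* (0.073) and *Dsc2* (0.18). Leaving out 1 mouse changed the sign of the log2 fold change, with ranges of -0.25 (without mutant 4) to 1.62 in *Cdh12*, -0.067 to 0.0039 in *Cdh1*, -0.11 to 0.029 in *Cdh2*, -0.14 to 0.13 in *Cdh6*, -0.18 to 0.14 in *Cdh13*, -0.40 to 0.51 in *Cdh16*, -0.11 to 0.063 in *Tjp1*, -0.076 to 0.016 in *Marveld2*, -0.15 to 0.022 in *Dsg2*, -0.13 to 0.048 in *Dsc2* and -0.057 to 0.13 in *Pkp1*. Mice with the same replicate number did not deviate together in every pair (correlations -0.16, 0.14, 0.27, -0.19, 0.03 and 0.23), so the numbers were not taken as a pairing, and of the 6 mutants only 3 and 6 correlated best with the control of their number. Depth limits *Cdh7*, *Cdh12*, the tested genes *Cldn20*, *Cldn15*, *Cdh16* and *Cdh17* (mean counts of 6.67 to 9.75) and the 7 genes below the minimum count.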

Other observations

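Some junction genes lie near each other on a chromosome, and such pairs did not always have the same difference. *Cdh20*, *Cdh7* and *Cdh19* are successive junction genes on mouse chromosome 1 (GRCm38), with log2 fold changes of 1.40, 2.81 and 0.65. With the neuron and Schwann cell scores in the model these were 0.39, 2.66 and -0.06. *Cdh7* reached the minimum count only through the mutants. The gap between *Cdh20* and *Cdh7* is 4987 kb and that between *Cdh7* and *Cdh19* is 748 kb. *Cldn6* and *Cldn9* on chromosome 17 are 137 bases apart and had log2 fold changes of 0.01 and -0.20. *Cdh3* and *Cdh1* on chromosome 8 are 46053 bases apart and had log2 fold changes of -0.23 and -0.02. These genes were chosen after their values were seen, the differences between neighbours were not tested, and 3 neighbours are too few for a statement on the region.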
